A study of Mus musculus with 84 samples.

Results

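The cytosolic ribosomal protein genes encode the protein part of the ribosomes that translate nuclear-encoded messages. Members were taken by symbol from the deposited table: all symbols made of Rpl or Rps with a number and at most a short suffix, and Rplp0, Rplp1, Rplp2 and Rpsa, without the Rps6k kinases. This gave 83 of 20308 genes, of which 51 belong to the large subunit and 32 to the small subunit. Of the 83, 77 encode standard components and 6 have names of variants that resemble a standard gene: Rpl3l, Rpl7l1, Rpl10l, Rpl22l1, Rpl39l and Rps27l. Fau, Rpl36al and Gnb2l1 (an older symbol of Rack1) also belong to the ribosome or its close relatives but fall outside the name rule, and are given beside the members.

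The cells were 84 single mouse cells of E11.5 embryos (E counts days of gestation) from the aorta-gonad-mesonephros region, the part of the trunk around the dorsal aorta where blood stem cells arise. They had been sorted as CD31+CD144+CD41-CD45-, that is, for 2 endothelial surface proteins and against 2 blood cell proteins, captured on a microfluidic chip made for cells of 10 to 17 µm and sequenced as full-length cDNA. The labels name no strain, genotype, treatment or embryo, and all cells form 1 group that counts as 1 sample. Cells are therefore not replicates of a condition, no test across cells was made, and ranges below are over cells, which are numbered as in the sample titles. Of 17 endothelial markers, a median of 15 per cell reached 10 TPM, and 80 cells had at least 3. In 34 cells at least 3 of 11 mesenchyme markers, among them collagen genes, also reached 10 TPM, although the median cell had 1. TPM is a level per transcript length scaled to a fixed sum per cell, so levels of different genes can be compared, but the number of reads behind a value is unknown. Cells 56, 72 and 78 departed from the others in their ribosomal protein profile. Many of the values that rest on them are given with and without them, but not those of the structural groups.

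A ribosome consists of a small subunit, which reads the message, and a large subunit, which joins amino acids. Most of its proteins are present once per particle, so their genes are commonly discussed as a set expressed at matched levels. Many of these messages begin with a run of C and T bases at the cap, the terminal oligopyrimidine or TOP motif, through which the kinase mTOR and the binding protein LARP1 control their translation. Mutations in several of the genes cause Diamond-Blackfan anaemia, a failure of red cell production.

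Start sites are shown for the 5 members with the highest and the 3 with the lowest mean correlation with other members, among those with a RefSeq window, to let the beginnings of the 2 sets be compared. Each sequence is the gene strand from 30 bases before to 20 bases after the RefSeq start on GRCm38.p6, 5′ to 3′, and capitals mark the longest run of C or T within the bases from 10 before to 15 after the start. The first 5 are the start windows of Rpl37a at chr1:72711230-72711279 (plus strand), Rps28 at chr17:33824543-33824592 (minus strand), Rps7 at chr12:28635934-28635983 (minus strand), Rpl35 at chr2:39005112-39005161 (minus strand) and Rpl41 at chr10:128549149-128549198 (minus strand). The last 3 are Rpl31 at chr1:39367821-39367870 (plus strand), Rps2 at chr17:24720033-24720082 (plus strand) and Rpl7l1 at chr17:46782637-46782686 (minus strand). The start used for Rps2 lies inside its listed gene span of 24718121 to 24721927 and not at its end.
Rpl37a: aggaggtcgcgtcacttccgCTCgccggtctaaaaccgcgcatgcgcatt
Rps28: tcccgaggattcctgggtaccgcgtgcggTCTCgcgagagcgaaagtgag
Rps7: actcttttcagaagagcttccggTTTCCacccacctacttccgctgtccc
Rpl35: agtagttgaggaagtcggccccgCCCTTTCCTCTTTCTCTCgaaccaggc
Rpl41: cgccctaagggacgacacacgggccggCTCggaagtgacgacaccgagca
Rpl31: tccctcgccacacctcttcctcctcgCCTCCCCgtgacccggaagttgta
Rps2: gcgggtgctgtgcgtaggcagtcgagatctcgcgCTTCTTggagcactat
Rpl7l1: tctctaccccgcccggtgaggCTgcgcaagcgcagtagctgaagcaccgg

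The marked run was 18 bases in Rpl35, 7 in Rpl31, 6 in Rps2, 5 in Rps7, 4 in Rps28, 3 in Rpl37a and Rpl41, and 2 in Rpl7l1. Both sets of genes thus held short and longer runs, and a RefSeq start need not be the base at which the message begins. The place of Rpl31 in the low set rests on cell 72, without which its mean r was 0.33. A full RefSeq window was found for 63 of the 83 members and for 27025 genes in all. A run of 6 or more C or T between 10 bases before and 15 after the start was present in 55.6% of the 63 members and in 27.6% of all genes. The stretch CTTTCC, which is itself such a run, lay between 20 bases before and 30 after the start in 19.05% of members and 2.83% of all genes. CCGGAAG, the core bound by ETS-type factors, occurred on either strand of the window from 250 bases before to 50 after the start in 41.3% of members and 9.93% of all genes. AAGATGG, the core bound by YY1, occurred on either strand in 15.9% and 7.28%, and the TATA box stretch TATAAA on the gene strand, between 40 and 16 bases before the start, in 1.59% and 2.41%. These letter matches are descriptions of the reference and not sites shown to be bound.

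The 83 genes together held a median of 15.2% of a cell's TPM, with quartiles of 13.8% and 16.5%. The lowest cell was cell 84 with 10.2% and the highest was cell 81 with 24.4%. Cells 13 and 12 followed at the low end with 10.5% and 11.2%, and cells 62 and 31 at the high end with 22.3% and 19.9%. Only cells 62 and 81 lay above 20%. The 3 highest cells had between 9548 and 10073 genes at 1 TPM or more, against 5977 to 7575 in the 3 lowest, while the median over all cells was 6978. Cell 81 had all 17 endothelial markers and 4 mesenchyme markers at 10 TPM or more, and cell 84 had 11 and 5. Cell 13, with the share next to the lowest, had 2 endothelial and 8 mesenchyme markers. Over all 34 cells with at least 3 mesenchyme markers the share ranged from 10.2% to 24.4% with a median of 14.4%. In the other 50 cells it ranged from 11.2% to 19.9% with a median of 15.4%, so both sets covered most of the same range. The part of mesenchyme RNA in the share was not tested.

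**Figure D1:**
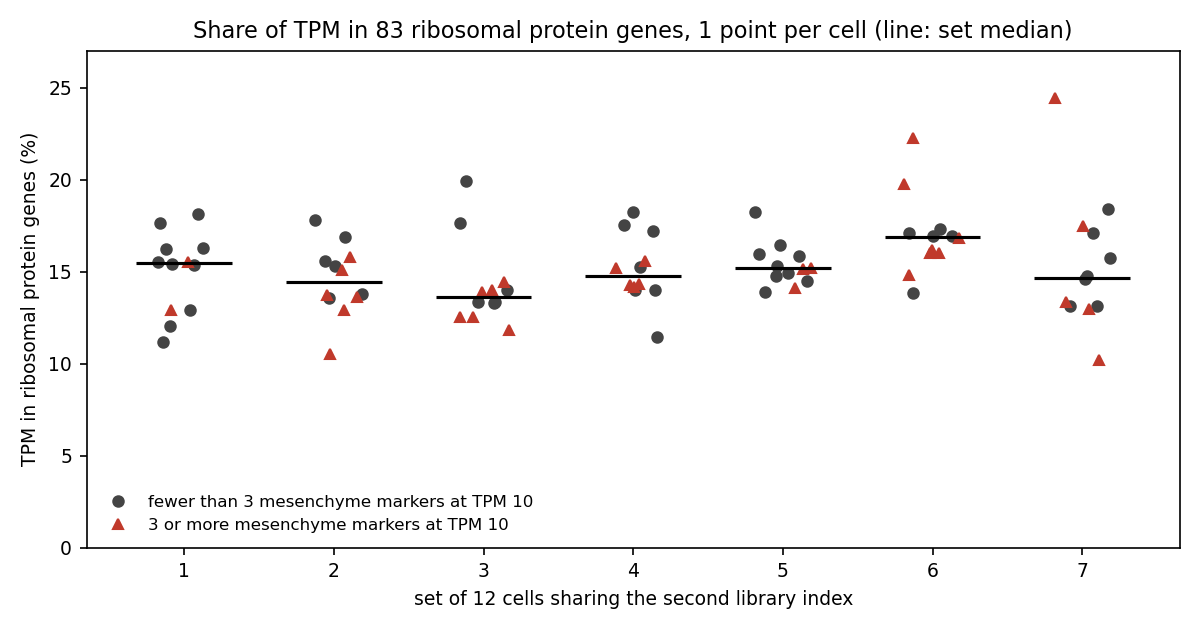
Share of TPM in the 83 ribosomal protein genes (y axis, percent), 1 point per cell, by set of 12 cells with the same second library index (x axis), with triangles for cells with at least 3 of 11 mesenchyme markers at 10 TPM or more and lines at set medians. Medians lie between 13.6% in set 3 and 16.9% in set 6, and the 2 cells above 20% are in sets 6 and 7.

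The large subunit genes held a median of 8.56% of TPM, from 5.74% to 13.1%, and the small subunit genes 6.44%, from 4.46% to 11.3%. Small subunit TPM over large subunit TPM had a median of 0.756 and ranged from 0.685 to 0.875, so the highest cell was less far from the lowest than for either sum. The ratio was 0.779 in cell 84, which had the lowest share, and 0.863 in cell 81, which had the highest. By gene, the small subunit stood higher: the median of the members' median levels was 1868 TPM for the small subunit and 1328 TPM for the large. The ratio of sums is below 1 because the large subunit has more genes.

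Detection was near complete. Of the 83 members, 76 (91.6%) had at least 1 TPM in every one of the 84 cells, as did 754 genes (3.71%) of the whole table. The 7 others were Rpl31 and Rpl22l1, each absent from 1 cell, Rps27 with 66 cells, Rpl24 with 63 cells, and 3 variants named Rpl39l, Rpl3l and Rpl10l with 3, 2 and 1 cells. Of the 146 genes with a median of at least 1000 TPM, 62 were members. Among the 100 highest genes of a cell, a median of 44 were members, from 29 in cell 84 to 56 in cell 81. The order of levels was alike from cell to cell. Spearman's rho between a cell's member levels and the median of the other cells was 0.948 at the median, from 0.801 to 0.973, over 83 genes that share depth and length correction within a library.

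**Figure D2:**
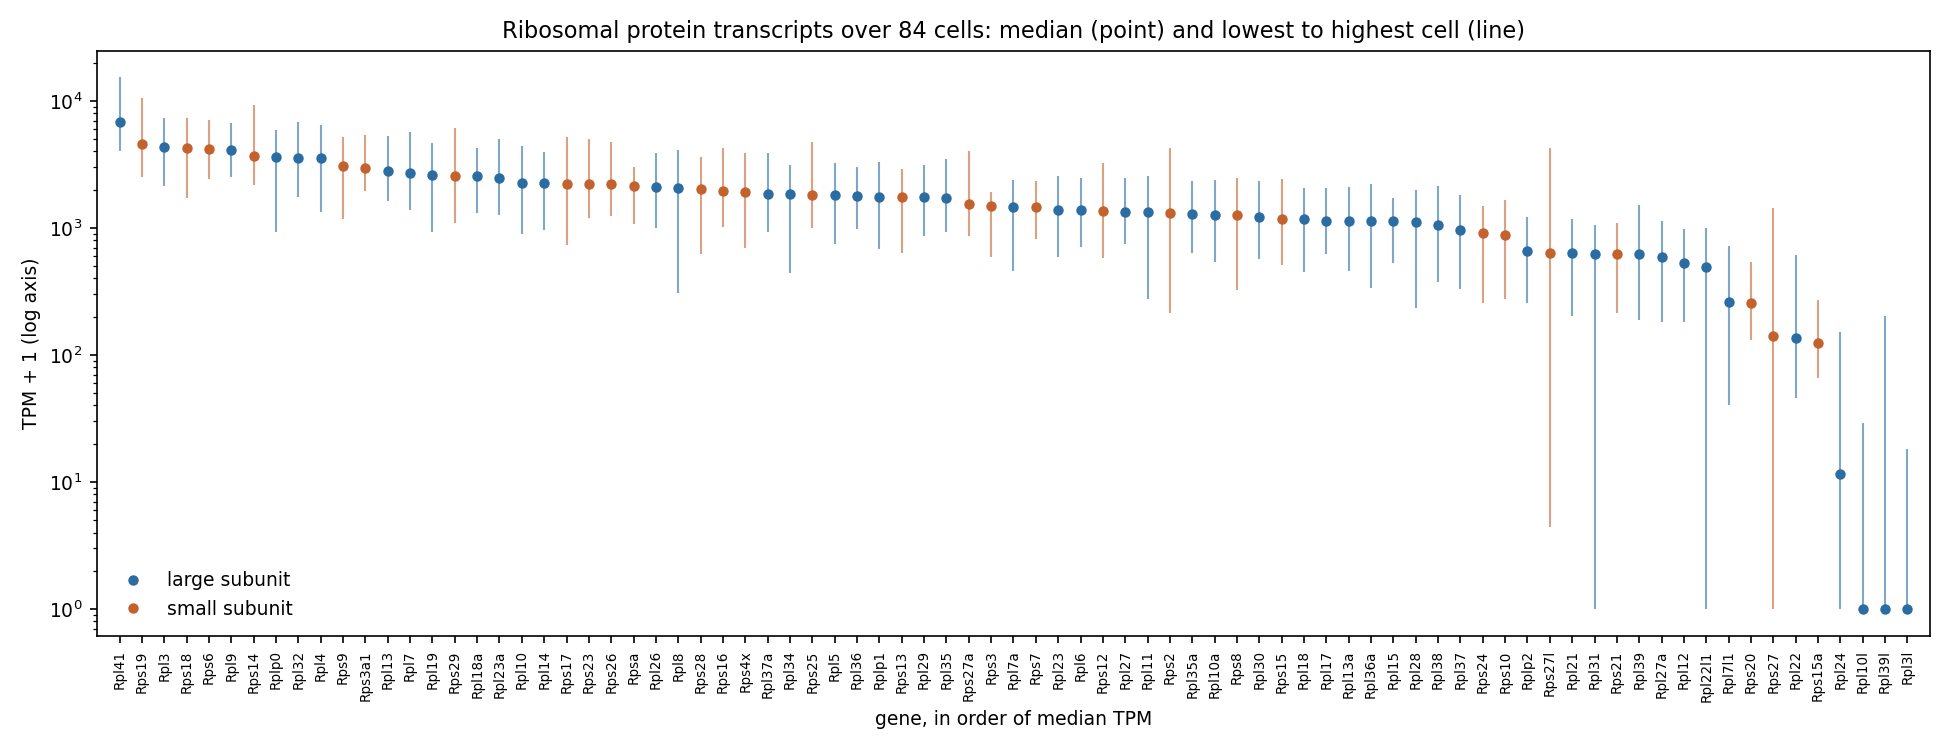
Levels of members in TPM + 1 (y axis, log axis), in order of median TPM (x axis), with the median over 84 cells as a point and the lowest to the highest cell as a line, blue for large and orange for small subunit genes, not every member being shown. Rpl41 has the highest median at 6758 TPM, and long lines reach down to 0 TPM for Rpl31, Rpl22l1 and Rps27.

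Rpl41 had the highest level, with a median of 6758 TPM, from 4009.6 to 15309 TPM, and was 6th among all genes of the table. It encodes a peptide of 25 residues that sits at the joint between the subunits. Its coding sequence on the minus strand of chromosome 10 (gene span 128548110 to 128549168, GRCm38.p6) is shown because 17 of its 25 codons, in capitals, are for lysine or arginine.
Rpl41: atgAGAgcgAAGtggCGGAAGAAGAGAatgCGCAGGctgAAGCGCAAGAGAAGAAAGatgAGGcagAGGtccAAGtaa

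Among the next members by median TPM were Rps19 with 4597, Rpl3 with 4359.5, Rps18 with 4288, Rps6 with 4173, Rpl9 with 4115, Rps14 with 3696 and Rplp0 with 3641. Rps19 is the gene most often mutated in Diamond-Blackfan anaemia, Rpl3 lies near the peptidyl transferase centre, and Rps6 is the substrate of the S6 kinases. Their ranges over cells overlapped throughout, for example 2519 to 10449 TPM for Rps19 and 2527 to 6635 TPM for Rpl9. Differences between neighbours within the same cell are not given here, so this order is one of medians only. Together the 10 highest held 28.9% of the members' TPM. At the low end, the 3 variants Rpl3l, Rpl10l and Rpl39l had a median of 0 TPM and reached at most 17.2, 27.9 and 203 TPM in single cells. The standard members with the lowest medians were Rpl24 with 10.5, Rps15a with 124, Rpl22 with 134, Rps27 with 139 and Rps20 with 257 TPM. The variant Rpl7l1 lay at 259, Rpl22l1 at 488, and the standard gene Rpl12 at 526 TPM. Over the 77 standard members the 90th percentile of medians was 3644 TPM and the 10th was 618 TPM, a ratio of 5.90. Genes whose products mostly occur once per ribosome thus had listed levels that spanned several-fold.

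How reads of near-identical copies were assigned is not given in the sources used here, and its part in this order was not tested. Mouse ribosomal protein genes have many processed pseudogenes. When every 67-base window of a gene's coding transcripts was compared with all other transcripts of GENCODE vM21, the share of windows found elsewhere was 84.2% for Rps6, 65% for Rpl3, 72.4% for Rps18 and 0.356% for Rps3. Of the 83 members, 80 shared a window with some transcript, but only 21 with a gene that has a row in the table under the same symbol. Rps6, Rpl3, Rps18 and Rps3 were not among these, and the highest share with genes of the table was 56.2% for Rpl35. Rpl7a shared windows with 84 pseudogenes, Rpl21 with 67, Rps2 with 57 and Rpl29 with 55. Over the 78 members detected in at least 80 cells, Spearman's rho between the shared share and the median TPM was 0.17. The length of the principal transcript gave a rho of −0.03 with the median TPM.

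The P stalk recruits elongation factors to the large subunit. Rplp0, its base, had a median of 3641 TPM, Rplp1 had 1763, Rplp2 had 656, and Rpl12, which lies at the stalk's base, had 526 TPM. In the ribosome Rplp1 and Rplp2 form dimers that are bound to Rplp0. The median of the 6 pairwise correlations in this group was 0.10. Rpl5 and Rpl11, which bind 5S ribosomal RNA and, when free, the p53 regulator Mdm2, had medians of 1804 and 1322 TPM. Their correlation over 84 cells was 0.09, although both belong to 1 particle. Rpl11 ranged from 273 to 2578 TPM, with its lowest value in cell 72. Trp53 itself had a median of 730 TPM, and its target Cdkn1a was detected in 17 cells.

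The 8 members listed for the exit tunnel through which the new chain leaves, or its rim, ranged in median from 618 TPM for Rpl39 to 3521 TPM for Rpl4, with a median pairwise correlation of 0.29 over 28 pairs. On the small subunit, the 7 genes listed for the mRNA channel and the head ranged from 257 TPM for Rps20 to 4597 TPM for Rps19, and their 21 pairs had a median correlation of 0.15. The 6 genes of the platform and the mRNA exit were closer in level, from 2034 TPM for Rps28 to 3696 TPM for Rps14, with a median correlation of 0.34 over 15 pairs. The 5 genes listed as neighbours of the peptidyl transferase centre ranged from 1255 TPM for Rpl10a to 4359.5 TPM for Rpl3, with a median of 0.11 over 10 pairs. The median over all member pairs was 0.28. Over all 84 cells, the platform genes were thus above it and the tunnel genes about equal. The peptidyl transferase, channel and head, P stalk and 5S groups were below it. None of these group values was recomputed without cells 56, 72 and 78. The tunnel group holds Rpl31, whose mean r with all other members was 0.10, and 0.33 without cell 72. The channel and head group holds Rps2, the peptidyl transferase group holds Rpl8, both with a low mean r, and the 5S group is 1 pair.

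Rps27a and Fau encode a ribosomal protein fused to ubiquitin or a ubiquitin-like protein. Their medians were 1533 and 1326 TPM, each detected in all 84 cells. The 18 genes listed for Diamond-Blackfan anaemia ranged in median from 139 TPM for Rps27 to 4597 TPM for Rps19, and 17 of them were detected in at least 80 cells. Their median level was 1389 TPM, against 1477 TPM for all 83 members.

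Of the 6 variants, Rps27l and Rpl22l1 stood above the standard gene they resemble and the others below it. Rps27l had a median of 634 TPM, from 3.43 to 4218, and Rps27 had 139 TPM, from 0 to 1424, and was at 0 in 16 cells. Rps27l was the higher of the pair in 80 of 84 cells, and the ratio of medians was 4.56. Spearman's rho between them over 84 cells was 0.04. Rps27l is known as a target of p53. Both genes code for 84 residues. Their coding sequences differ at 61 of 255 bases, shown in capitals, which leaves an identity of 76.1% and no identical run longer than 11 bases, much shorter than a 67-base read.
Rps27: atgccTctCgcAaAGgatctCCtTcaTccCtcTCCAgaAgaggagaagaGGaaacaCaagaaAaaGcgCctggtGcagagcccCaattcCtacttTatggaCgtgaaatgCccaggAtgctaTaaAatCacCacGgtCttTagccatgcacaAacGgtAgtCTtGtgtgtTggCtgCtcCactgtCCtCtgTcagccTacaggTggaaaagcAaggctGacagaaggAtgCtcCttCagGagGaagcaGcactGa
Rps27l: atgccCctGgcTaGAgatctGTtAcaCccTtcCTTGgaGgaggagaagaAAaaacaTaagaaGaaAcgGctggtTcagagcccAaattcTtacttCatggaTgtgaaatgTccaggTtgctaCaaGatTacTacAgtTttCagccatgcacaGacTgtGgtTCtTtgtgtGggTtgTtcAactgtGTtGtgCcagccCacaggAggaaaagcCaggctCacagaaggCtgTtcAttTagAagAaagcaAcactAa

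Rps27 lies on the minus strand of chromosome 3 (90212667 to 90213648) and Rps27l on the plus strand of chromosome 9 (66944624 to 66949522, GRCm38.p6). Rps27 shared 43.5% of its 67-base windows with other transcripts, among them 4 pseudogenes, and Rps27l 10.6%. The part of such copies in the level of Rps27 was not tested.

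Rpl22l1 had a median of 488 TPM against 134 TPM for Rpl22, a ratio of 3.64, and was the higher of the pair in 81 cells. Rpl22 and Rpl22l1 encode RNA-binding proteins of the large subunit, and their coding sequences are 66.9% identical. Spearman's rho between them was 0.19. The standard gene was the higher one for Rpl36a, with 1136 TPM against 509 TPM for Rpl36al and a ratio of 2.23, in 81 cells. Rpl7 had 2718 TPM against 259 TPM for Rpl7l1, a gene known for ribosome assembly rather than for the mature ribosome and only 52.8% identical in coding sequence. Rpl3, Rpl10 and Rpl39 had medians of 4359.5, 2259.6 and 618 TPM, while Rpl3l, known from striated muscle, Rpl10l, known from the male germ line, and Rpl39l, also known from the testis, were detected in 2, 1 and 3 cells. Coding identity within these pairs was 73.2%, 84.8% and 85.3%.

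Rpl24, which bridges to the small subunit, had its low level beside a second row with the same symbol in capitals. The row RPL24 had a median of 1696 TPM, from 339 to 3287, in all 84 cells. It was above Rpl24 in every cell, and rho between the rows was −0.08. The table holds no description for RPL24, and which transcript it stands for is not given in the sources used here. Rpl24 shared 81.2% of its 67-base windows with other transcripts, 3 of them pseudogenes. A further row without description, Gm9846, had a median of 3021 TPM, from 1778 to 6036.

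**Figure D3:**
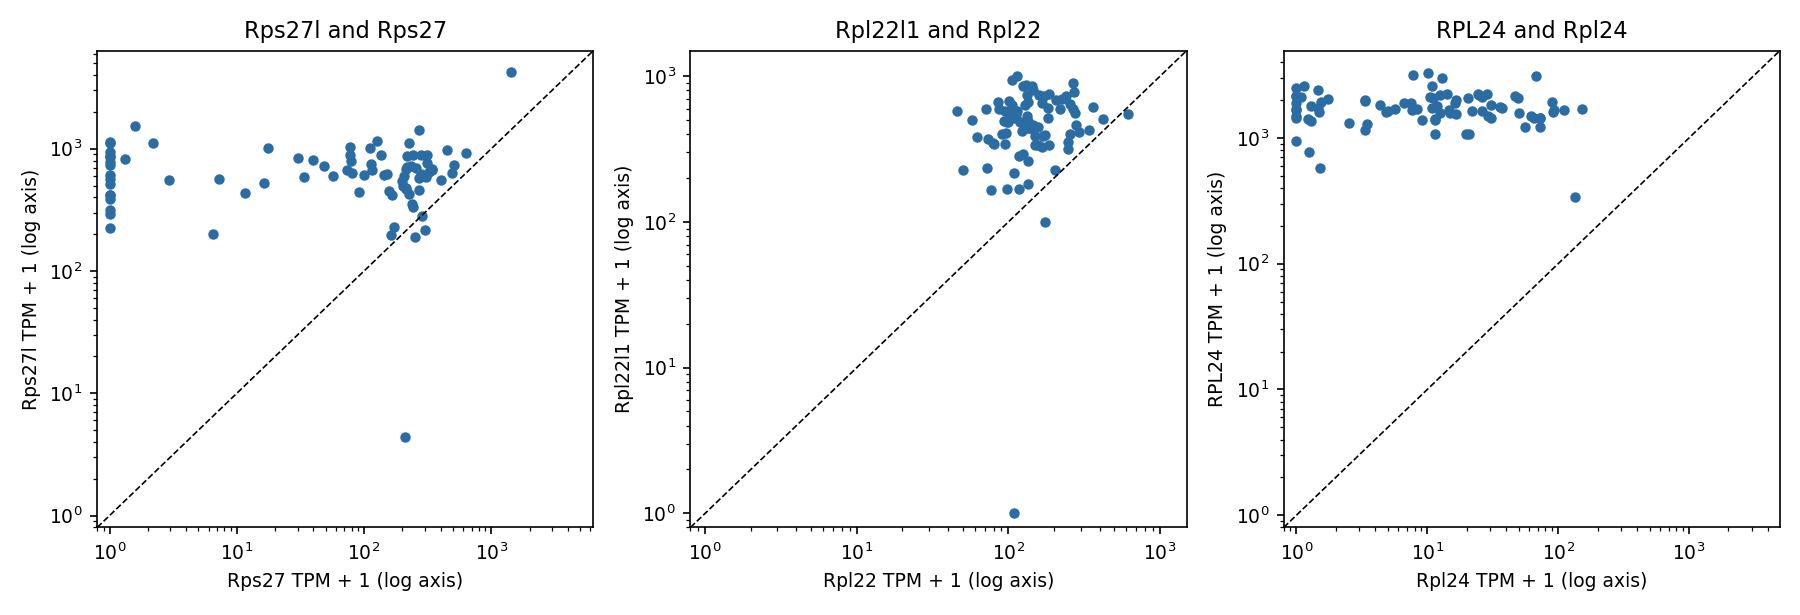
TPM + 1 of Rps27l against Rps27, Rpl22l1 against Rpl22, and the row RPL24 against Rpl24 (log axes), 1 point per cell, with the dashed line where both are equal. Rps27l lies above the line in 80 cells, Rpl22l1 in 81 and RPL24 in 84.

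Members varied little between cells for their level. Over the 78 members with at least 1 TPM in at least 80 cells, the SD of log2(TPM + 1) had a median of 0.40. Over the 1899 other genes of that kind the median was 1.46, and over the 84 of those with a median of at least 1000 TPM it was 0.55. Of the members, 71 of 78 lay under that last value. The 5 members that did not pass the filter were Rps27, Rpl24, Rpl3l, Rpl10l and Rpl39l, and without any filter the members' median SD was 0.41. Among the smallest values were those of Rps9 with 0.30, Rpl41 with 0.31, and Rps3a1 and Rpl9 with 0.32 each. Rps9 helps to keep decoding accurate, and Rps3a1 is part of the small subunit platform. Rps9 ranged from 1183 to 5193 TPM.

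The 5 largest values were 1.16 for Rpl22l1, 1.08 for Rpl31, 1.06 for Rps27l, 0.89 for Rps2 and 0.88 for Rpl7l1. For 3 of these, 1 cell held most of the spread. Rpl31, which lies at the exit tunnel rim, was at 0 TPM in cell 72 and between 294 and 1056 TPM in all other cells. Without cell 72 its SD was 0.38, about that of a usual member. Rpl22l1 was also at 0 TPM in cell 72, between 99.6 and 998 TPM elsewhere, and had an SD of 0.65 without that cell. Rps27l was at 3.43 TPM in cell 56, its next lowest value was 189 TPM, and its SD without cell 56 was 0.73. Rpl7l1 and Rps2 differed from these, since their SD was 0.87 and 0.86 without cells 56, 72 and 78 together.

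Members were positively correlated over cells. Among the 78 members, the median Pearson r of log2(TPM + 1) over 84 cells was 0.28 across 3003 pairs, with quartiles of 0.17 and 0.39. Of these pairs, 93.9% were above 0 and 8.33% reached 0.5. Among the 1899 other genes the median was 0.03, 57.9% of pairs were above 0 and 0.427% reached 0.5. The 84 other genes with a median of at least 1000 TPM had a median r of 0.03, with 1.41% of pairs at 0.5 or more. They were chosen by that cut, which 62 members reached, and were not matched to the members in level. Without cells 56, 72 and 78 the members' median was 0.32, and without cells 62 and 81, which had the highest shares, it was 0.25. Pairs of a member with another gene had a median of −0.01. All points are cells of 1 group, the labels name no preparation batch, and TPM has a fixed sum, so these values are descriptions. Small subunit pairs had a median r of 0.33, large subunit pairs 0.26 and pairs across the subunits 0.29.

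**Figure D4:**
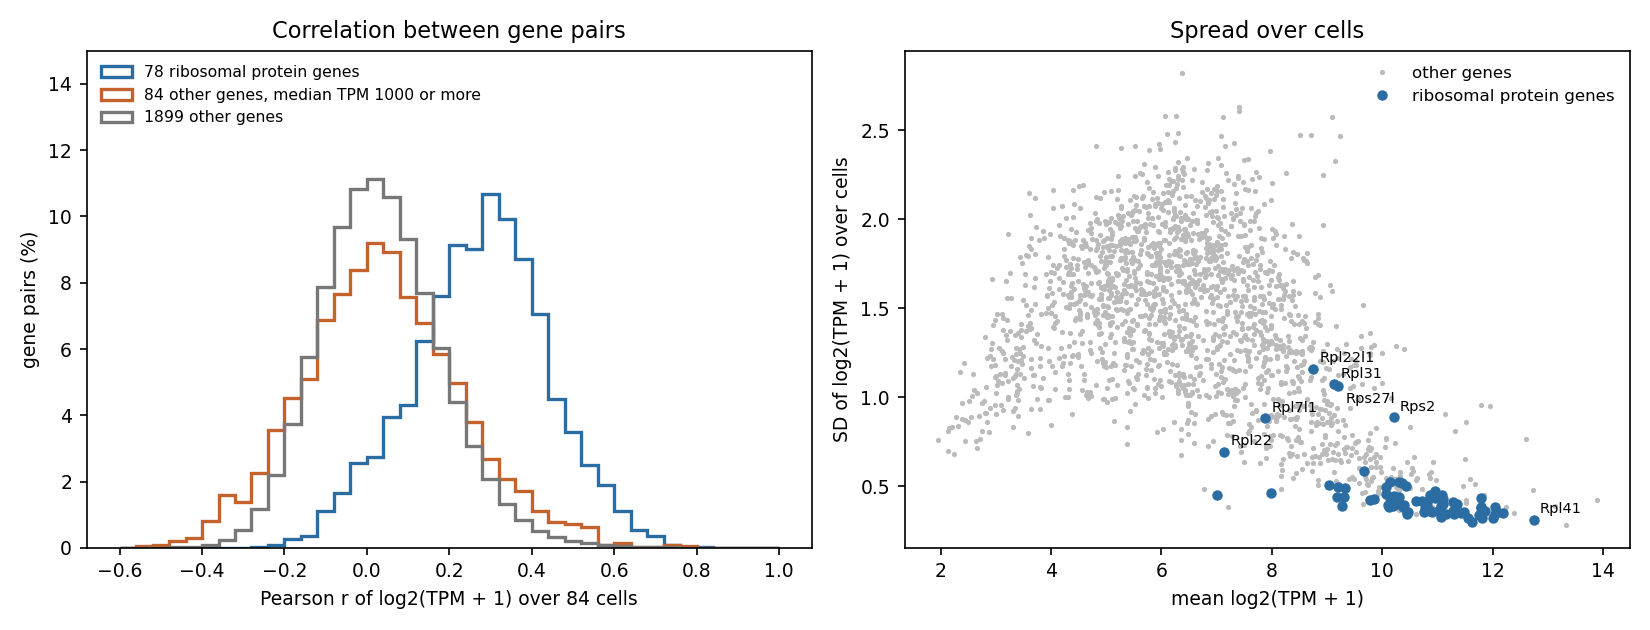
Left, distribution of Pearson r of log2(TPM + 1) over 84 cells for pairs of 78 ribosomal protein genes, of 84 other genes with a median of at least 1000 TPM and of 1899 other genes (y axis, percent of pairs). Right, SD against mean of log2(TPM + 1) over cells for the same members (blue) and other genes (grey). The members' pairs centre on 0.28 against 0.03 for both other sets, and most members lie at the lower right edge.

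The 5 members with the highest mean r to the others were Rpl37a with 0.42, Rps28 with 0.41, and Rpl32, Rps7 and Rps29 with 0.40 each. Apart from the pair that cell 72 decides, the pairs with the highest r were Rpl37 with Rps29 at 0.76 and Rpl35 with Rps29, Rpl37a with Rps29 and Rpl35 with Rpl37a at 0.73 each. Without cells 56, 72 and 78 these 4 pairs lay between 0.75 and 0.76. Rps29, Rpl37 and Rpl37a encode small zinc-binding proteins, of 56, 97 and 92 residues, and Rpl35, of 123 residues, lies at the exit tunnel. Members with shorter principal transcripts had somewhat higher correlations. The 26 members with the shortest principal transcripts, 364 to 624 bases, had a median pair r of 0.34, the middle 26 had 0.27 and the 26 longest, 964 to 3706 bases, 0.25. Spearman's rho between length and mean r was −0.22 over the 78 members. Among 1812 other genes with a known length, rho between length and the correlation with the members' mean was −0.31, so the same direction was seen outside the members.

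Rpl31 and Rpl22l1 had the highest r of all pairs at 0.84, but both were at 0 TPM in cell 72 and without it r was 0.29. The lowest pairs were Rps2 with Rps26 at −0.26, and Rpl7 with Rpl8 and Rpl31 with Rps25 at −0.22 each. The value for Rpl31 with Rps25 also rests on cell 72, since without it r was 0.51. That for Rpl7 with Rpl8 was −0.11 without cell 78, while Rps2 with Rps26 was −0.25 without cells 56, 72 and 78. The 5 members with the lowest mean r were Rpl7l1 and Rps2 with 0.04 each, Rpl8 with 0.08, Rpl31 with 0.10 and Rps10 with 0.12. For Rpl31 the mean r without cell 72 was 0.33, within the usual range, while those of Rpl7l1, Rps2 and Rpl8 were 0.02, 0.02 and 0.06 without cells 56, 72 and 78. Rpl8 lies at the peptidyl transferase centre. Its lowest value was 306 TPM in cell 78, where no other cell was under 1055 TPM.

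Rps2, a protein at the mRNA entry of the small subunit, followed the second library index more than any other gene tested. The labels give each library a first and a second index, and cells with the same second index form 7 sets of 12. Of the variance of Rps2 on the log2(TPM + 1) scale, 51.8% lay between these sets, the highest of all 1977 genes detected in at least 80 cells and above the next, Cbx3, with 38.3%. The median over the other genes was 7.04% and over the members 8.95%. In order of the sets, the median Rps2 level was 1944, 1991, 1084, 669, 900.4, 953 and 1810.0 TPM. All 12 cells of set 4 lay between 264 and 823 TPM, and all 12 of set 1 between 1643 and 4244 TPM, so these sets did not overlap. Set 7 ranged from 211 TPM, in cell 78, to 3282 TPM. With the mean of each set subtracted, the SD of Rps2 was 0.62 instead of 0.89, its mean r to other members 0.13 instead of 0.04, and its r with Rps26 −0.09. Rps2 shared 51.3% of its 67-base windows with other transcripts. The labels give 24 libraries per lane, more than the 12 of a set, but do not say which sets shared a lane or a run. Index, lane and cell composition therefore cannot be told apart.

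**Figure D5:**
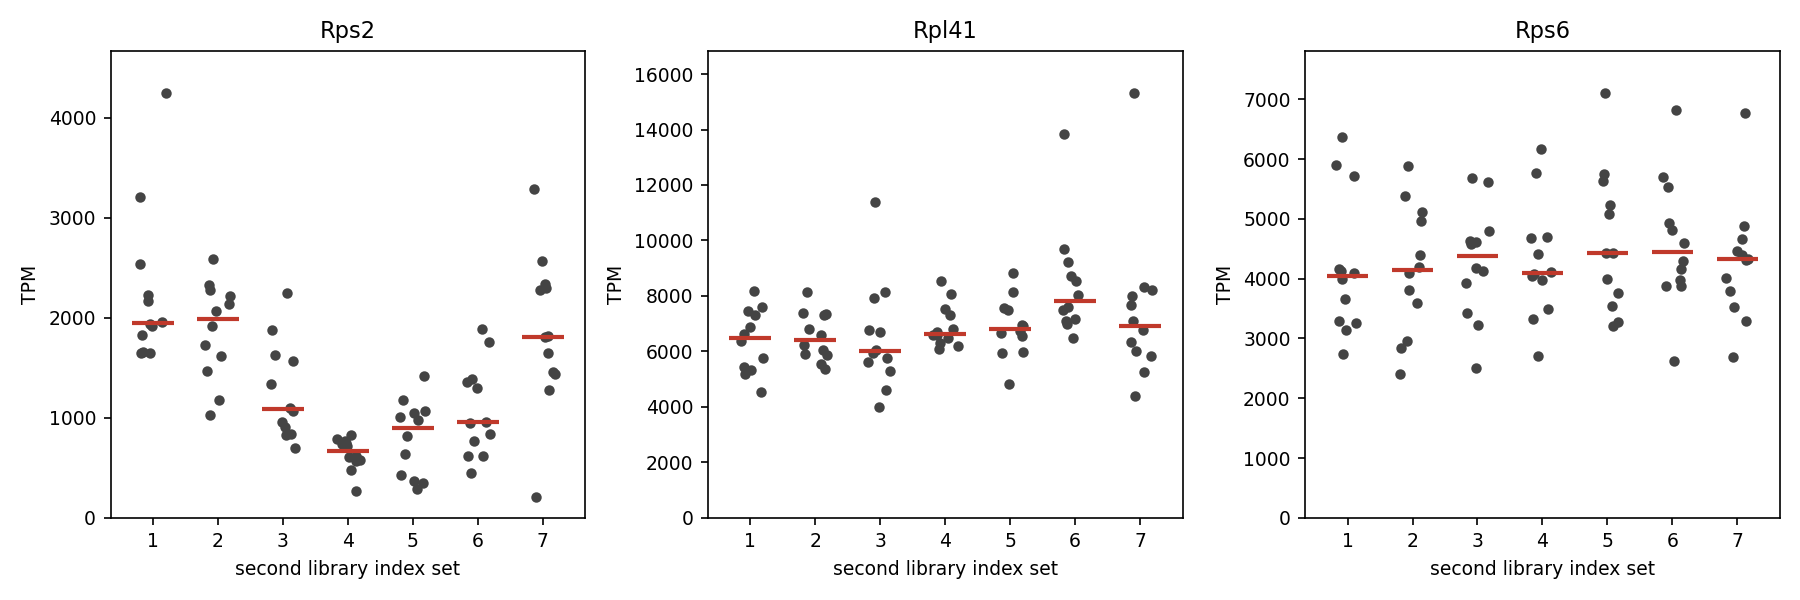
TPM of Rps2, Rpl41 and Rps6 (y axes, from 0), 1 point per cell, by the set of 12 cells with the same second library index (x axis), with lines at set medians. Rps2 medians range from 669 in set 4 to 1991 in set 2, while Rpl41 and Rps6 show overlapping sets.

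Among the other members, Rpl13 had 25.4% of its variance between the same sets, and it was the only one besides Rps2 above 20%, as were 20 of the 1899 other genes. Its set medians lay between 2358 TPM in set 3 and 3733 TPM in set 1. For Rps6 the value was 3.01% and for Rpl41 16.05%. Over the 12 first indices, with 7 cells each, the median was 15.4% for members and 12.3% for other genes. Rps3a1, with 33.4%, and Rpl23, with 32.8%, ranked 2 and 3 of the 1977 genes there, while Rps2 had 6.30%. A split into more and smaller groups holds more variance between groups by itself, so these values cannot be set against those of the 7 sets. The part that would lie between groups without any index effect is not given here for either index. The share of TPM had medians between 13.1% and 16.9% over these first indices.

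Cells 72, 56 and 78 departed most from the common profile of members. The root mean square of a cell's log2 differences from the mean level of each of the 78 members, after its own mean difference was removed, was 1.62 in cell 72, 0.94 in cell 56 and 0.84 in cell 78, against a median of 0.35 over cells. Cell 72 had 3334 genes at 1 TPM or more, the fewest of all cells, cell 78 had 4938 and cell 56 had 5704, and 6, 5 and 6 mesenchyme markers reached 10 TPM in cells 72, 78 and 56. Their shares of TPM in members, 16.8%, 13.3% and 15.2%, were within the usual range. The part of low detection in their profiles was not tested. In cell 72, beside the absent Rpl31 and Rpl22l1, Rps27l stood at 4218 TPM and Rps27 at 1424 TPM, where other cells reached at most 1523 and 633 TPM. Cell 72 was the highest of all cells in 12 members and the lowest in 5, so high and low values occurred together. In cell 56, Rps27l stood at 3.43 TPM and Rpl28 at 543 TPM, against a median of 1122 TPM in the other cells for Rpl28, while Rpl30 at 2219.8 TPM was near its highest value of 2338 TPM. In cell 78, Rps2 at 211, Rpl8 at 306, Rpl34 at 442 and Rpl22l1 at 99.6 TPM were low, while Rpl27 at 2477 TPM was the highest of all cells. By contrast cell 81 was the highest in 20 members and the lowest in none, and cell 84 the lowest in 16 and the highest in none. The share is the sum of the same members, so these counts restate the places of cells 81 and 84 at its ends.

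The genes outside the members that followed them most closely were ranked by their Pearson r with the members' mean log2(TPM + 1) over 84 cells, among 1899 genes. Ppia, the peptidylprolyl isomerase cyclophilin A, was among the highest at 0.57, as was the row RPL24 at 0.52. Cox6a1, a subunit of cytochrome c oxidase, had 0.48, the splicing proteins Snrpg and Snrpe 0.45 and 0.41, Gm9846 0.43, Ubl5 0.43, the actin-binding peptide gene Tmsb4x 0.41, and Gnb2l1, a protein of the small subunit, 0.40. The name rule did not take Gnb2l1, or RPL24, whose symbol is that of a member in capitals. At the other end were Gsk3b at −0.49, the histone gene H3f3b at −0.47, Pi15 at −0.44 and Dpysl2 at −0.43. The principal transcripts of Gsk3b, Pi15 and Dpysl2, at 8303, 6923 and 4520.0 bases, were longer than the median of 2739 bases, and that of H3f3b, at 1993 bases, was shorter. The part of length in these values was not tested.

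Genes that work with the ribosome had lower values than the highest genes above, which were picked for theirs. Of 18 genes listed for elongation factors and other TOP messages, 15 had an r above 0 with the members' mean, with a median of 0.15 and a highest value of 0.32 for Naca, a chaperone of new chains. Eef1a1, the factor that brings aminoacyl-tRNA, had the highest level of that list at 10211 TPM and an r of 0.28. Of 28 genes of ribosome biogenesis 21 were above 0, with a median of 0.05. Ncl had a median of 230 TPM, Fbl 72.3 and Nop56 350 TPM, far under the members. Only 11 of these 28 genes were detected in at least 80 cells. Of 14 growth control genes 7 were above 0, with a median of 0.00. Mtor was detected in 55 cells, Larp1 in 82 and Myc in 62. Among 76 mitochondrial ribosomal protein genes, whose products form a separate ribosome, 54 were above 0, with a median of 0.08 and a median level of 85.1 TPM. The median over the 1899 other genes was 0.01, and their share above 0 is not given here. All of those were detected in at least 80 cells. So were 17 of the elongation and TOP genes, but only 5 growth control and 32 mitochondrial genes. The list values are therefore not directly comparable with that median.

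Across cells, the share of TPM in members had a Pearson r of 0.78 and a Spearman rho of 0.68 with the share held by the 100 highest genes, which includes many members. With the 100 highest genes outside the members the values were 0.08 and −0.10. With the number of genes detected per cell, r was 0.13 and rho −0.17, so the sign depended on the measure, and without cells 62 and 81 r was −0.14. With the mean level of S phase genes r was −0.09 and rho −0.18, and with G2M phase genes −0.09 and −0.18. The endothelial list had an r of 0.20 and a rho of 0.29, and the mesenchyme list −0.19 and −0.31. For erythroid genes r was 0.26 but rho was −0.18, and 3 cells had 3 or more of 11 erythroid markers at 10 TPM, cells 62 and 81 among them. All these values are over 84 cells of 1 group with a fixed TPM sum, and the labels do not say whether the cells share 1 preparation.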

How the data were processed

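The deposited table gives TPM per gene, which the authors computed with tools that the submitters' processing notes name as CASAVA 1.8.2, Bowtie 0.12.9 and RSEM 1.2.3 on mm10. The sources used here give neither their order and settings nor the gene annotation. Columns sum to between 999998 and 1000002, so depth is unknown. Members were taken by symbol; the members and the gene lists were chosen with earlier results of these data known. A gene was detected at 1 TPM, and markers were counted at 10 TPM. SD and correlation used log2(TPM + 1) (pseudocount 1) for genes detected in at least 80 cells, which understates differences of low genes. Named genes are the 10 highest and 10 lowest by median, the 5 at each end of SD and mean r, the extreme pairs and neighbours, and the P stalk, 5S, ubiquitin fusion and variant genes; others were chosen after their values were seen. Some genes that this rule takes are not reported here. Coordinates and start windows come from RefSeq (GRCm38.p6), which matched 83 members, and transcripts from GENCODE vM21. Calculations used Python 3.11.15, numpy 2.4.6, pandas 2.3.3, scipy 1.17.1 and Biopython 1.88. Only the pair correlation and the formula for variance between index sets were tested on simulated data. No doublet caller was run.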

Additional observations from a re-analysis of the deposited data

How the results depend on the processing

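The 6 main values were recomputed under 40 alternative values, some of them chosen after seeing the data (those on cells 56, 62, 72, 78 and 81, on RPL24 and Gm9846, and on the first index). Of these, 35 stayed within the spread over cells, members, pairs or sets, or within 1.5 times for the count of members detected, and 5 moved further. These limits are wide, so the count says little about stability. The SD over pairs was 0.16, and a shift of the median correlation from 0.28 to 0.40 stayed within it. The spread over sets came from the same set values that were judged, and 0.52 in set 7 stayed within it. The median share was 19.7% when each cell was rescaled without its 100 highest other genes, by construction of a smaller total, and between 15.02% and 15.7% otherwise. The ratio of small to large subunit was 1.31 when medians replaced sums, which removes the number of genes from it. The median correlation of members ranged from 0.25 without cells 62 and 81 to 0.40 with median-of-ratios scaling over 1143 other genes. The correlation of the share with detected genes had no stable sign: within sets of 12 cells with the same second index it was −0.40 in set 1, 0.66 in set 3 and −0.55 in set 4, and the cause was not tested. No paired analysis was possible because the labels give 1 group. Depth is unknown, so a listed 0 cannot be told apart from a missed transcript, and no interval for counting error could be given.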
